A study of Mus musculus with 12 samples.

Results

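The inhibitory checkpoint genes encode surface proteins that restrain lymphocyte activation, and they were followed here across spleen and mesenteric lymph nodes of mice with and without ampicillin exposure. They were chosen by name, with earlier results of these data known. Of the 6 genes listed, 4 had a row in the values table of 561 genes: Btla, Cd274, Pdcd1lg2 and Tigit. Lag3 and Havcr2 were not analysed here.

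RNA was measured by NanoString nCounter with its Mouse Immunology panel, an assay that counts barcoded probes on single RNA molecules without amplification. All 12 samples came from mice that the labels number separately, on a C57BL6 background with an exon 16 knockout that causes hemophilia A, a bleeding disorder due to lack of clotting factor VIII, so that controls carried the knockout too. Ampicillin, a broad-spectrum antibiotic, was given by gavage at an age of 3 weeks and tissues were taken at 6 weeks. The 4 groups were ampicillin spleen, control spleen, ampicillin nodes and control nodes, with 3 samples each. The labels describe controls only as not treated, so gavage and ampicillin cannot be told apart.

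Checkpoints work as receptor and ligand pairs. PD-1, an inhibitory receptor of activated T cells, is engaged by PD-L1, the product of Cd274, and by PD-L2, the product of Pdcd1lg2. PD-L1 is found on many blood and tissue cells and is raised by interferon gamma through JAK kinases and the transcription factor IRF1, whereas PD-L2 is more restricted to dendritic cells, macrophages and some B cells. BTLA, the product of Btla, is an inhibitory receptor of B and T cells that binds HVEM, encoded by Tnfrsf14. TIGIT, the product of Tigit, is an inhibitory receptor of T and NK cells that competes with the activating receptor CD226 for ligands of the nectin family.

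Cd274 and Pdcd1lg2 are neighbours on mouse chromosome 19. In RefSeq's annotation of GRCm38.p6 Cd274 spans chr19:29362107-29388095 and Pdcd1lg2 chr19:29410919-29472927, with 22823 bases and 0 annotated genes between them. Btla lies at chr16:45223705-45252895 and Tigit at chr16:43626137-43665125. The 250 bases before the start that RefSeq's promoter table uses are shown for each ligand gene, because Cd274 was the member called with ampicillin. Whether Irf1 had a part in that change was not tested. Both windows are on the plus strand, Cd274 at chr19:29367188-29367437 and Pdcd1lg2 at chr19:29410669-29410918. The Pdcd1lg2 window ends at the gene's annotated span, whereas the Cd274 window lies inside that gene's span, before a start downstream of the span's first base. Capitals mark every match to the 5 motifs searched on both strands.
Cd274: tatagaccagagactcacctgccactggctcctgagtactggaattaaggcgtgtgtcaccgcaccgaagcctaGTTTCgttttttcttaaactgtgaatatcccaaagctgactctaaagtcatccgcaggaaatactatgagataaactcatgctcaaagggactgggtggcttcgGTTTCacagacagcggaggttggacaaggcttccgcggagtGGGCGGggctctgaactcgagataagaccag
Pdcd1lg2: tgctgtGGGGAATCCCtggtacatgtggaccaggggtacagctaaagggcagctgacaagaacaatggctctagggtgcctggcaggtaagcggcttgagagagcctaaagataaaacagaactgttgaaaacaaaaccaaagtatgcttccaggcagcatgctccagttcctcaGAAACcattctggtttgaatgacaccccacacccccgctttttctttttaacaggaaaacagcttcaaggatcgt

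The IRF element searched was GAAAC and the GC box GGGCGG. The ISRE core was GAAA followed by any 2 bases and GAAA, the GAS element TTC followed by any 3 bases and GAA, and the NF-kB element GGGA followed by any 4 bases and CC. The Cd274 window held 2 IRF elements, read as GTTTC on the printed strand, whose first bases lay at -176 and -72 from the start, and 1 GC box at -31. The Pdcd1lg2 window held 1 IRF element at -75 and 1 NF-kB match at -244. The windows of the other members, not printed, held IRF elements too, Btla 1 at -186 and Tigit 2 at -235 and -111. None of these windows held an ISRE core or a GAS element. Of 32851 RefSeq promoter windows of this length, 39.7% held an IRF element, 2.98% an ISRE core, 7.02% a GAS element, 17.6% an NF-kB match and 32.7% a GC box. The marked matches did not overlap each other. The IRF element is thus common, and a match describes letters and not a bound site.

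Each sample's counts were divided by a factor from its 14 housekeeping genes, and levels below are these scaled counts. Total counts ran from 396950 to 738489 per sample. All 4 genes passed the minimum of a mean of 20 scaled counts over the 12 samples, and 445 genes of the panel were tested. The markers matched the tissue labels. All 9 T cell markers were higher and all 7 B cell markers lower in control nodes than in control spleen (edgeR, adjusted p under 0.05). The summed neutrophil markers ran from 129.3 to 249.7 scaled counts in nodes against 5244 to 20837 in spleens. Ampicillin spleens 2 and 3 stood apart from the other spleens, with summed erythroid markers of 12969 and 9866 scaled counts against 1826 in ampicillin spleen 1 and 1965 to 3263 in controls.

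Cd274 fell with ampicillin. In control spleens 1, 2 and 3 it stood at 328.4, 389.1 and 372.2 scaled counts, and in ampicillin spleens 1, 2 and 3 at 281.6, 224.1 and 285.6. All ampicillin spleens lay below all control spleens. In control nodes 1, 2 and 3 it stood at 367.2, 309.3 and 273.6, and in ampicillin nodes 1, 2 and 3 at 204.9, 256.7 and 219.8. Here too the groups did not overlap. For comparison, 31.7% of tested genes lay lower without overlap in spleen, 20.7% in nodes and 12.8% in both tissues. In bulk tissue, fewer cells of a type and less RNA per cell cannot be told apart.

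**Figure D1:**
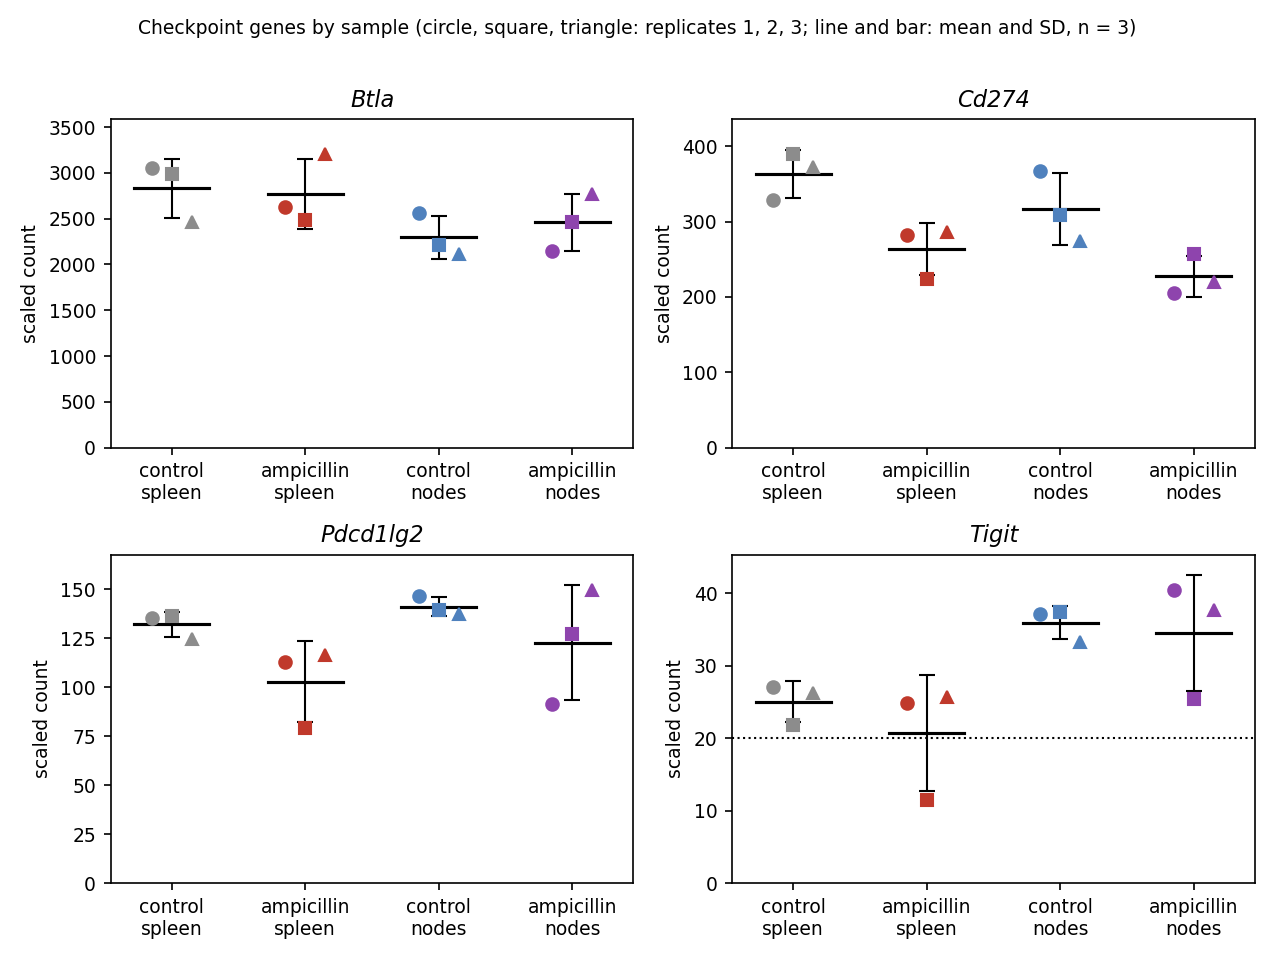
Scaled counts (y axis, from 0) of Btla, Cd274, Pdcd1lg2 and Tigit in the 12 samples, by group (x axis). Points are samples, with circle, square and triangle for replicates 1, 2 and 3, and lines and bars are the mean and SD of 3. The dotted line for Tigit marks the minimum of 20 scaled counts. Cd274 lay lower in every ampicillin sample than in any control sample of the same tissue, while Btla and Tigit overlapped between treatments in both tissues.

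In spleen the mean of Cd274 went from 363.2 ± 31.3 to 263.8 ± 34.4 scaled counts (SD, n = 3 each), a log2 change of -0.46 (SE 0.14, adjusted p = 0.041, edgeR quasi-likelihood test with Benjamini-Hochberg adjustment). In this comparison 1 of the 4 genes was called, against 16.9% of all tested genes and 14.6% that fell. Nothing is read from a count of 1 in 4. In nodes the mean went from 316.7 ± 47.2 to 227.1 ± 26.7, a log2 change of -0.47 (SE 0.14), which did not pass (adjusted p = 0.094, edgeR). None of the 4 genes was called in nodes by edgeR or DESeq2, with Cd274 alone at an unadjusted p under 0.05, and 0.449% of all tested genes were called.

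The mean of the spleen and node effects uses all 12 samples. The log2 change of Cd274 in this mean was -0.46 (SE 0.10, 95% confidence interval -0.68 to -0.25, adjusted p = 0.0083, edgeR), which is 1.38-fold. It was the 1 gene of 4 called, against 22.9% of all tested genes. This call held in all 18 alternatives run for it, with log2 changes from -0.52 to -0.35 and adjusted p from 0.00086 to 0.028 (edgeR, DESeq2 and limma). The difference between the effects in nodes and in spleen was -0.02 (95% confidence interval -0.44 to 0.40, adjusted p = 0.99, edgeR), and this wide interval does not show that the sizes were alike.

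The spleen call alone was less stable. It was lost with scaling by the trimmed mean of M-values (TMM; log2 change -0.28, adjusted p = 0.16, edgeR), under which ampicillin and control spleens overlapped. It was lost without control spleens 1, 2 or 3 (adjusted p = 0.082, 0.13 and 0.088, edgeR), without ampicillin spleens 2 or 3 (0.18 and 0.070) and without control node 2 (0.058). With the replicate numbers as a block the adjusted p was 0.073 (edgeR). Housekeeping scaling put the median log2 change of all tested genes at -0.17 in spleen and -0.05 in nodes, so Cd274 lay 0.28 and 0.42 below that median.

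**Figure D2:**
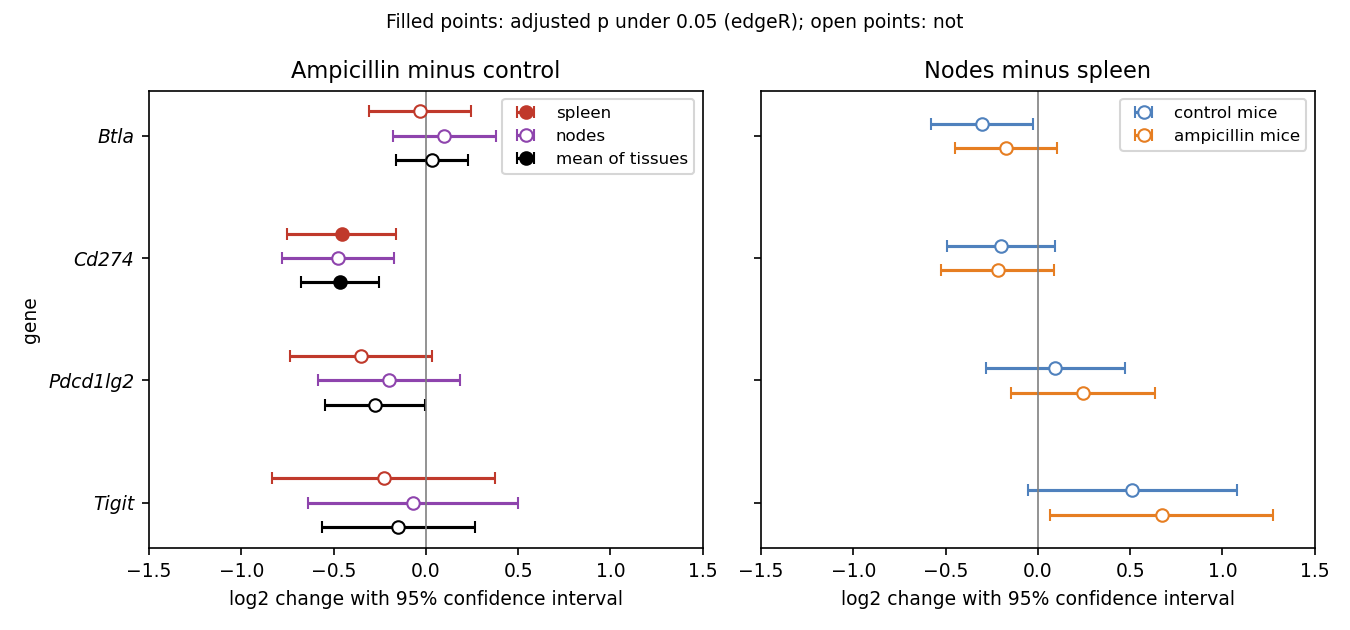
Log2 changes (x axis, with 95% confidence intervals from edgeR) of the 4 genes (y axis), for ampicillin minus control on the left and nodes minus spleen on the right. Filled points have an adjusted p under 0.05. The filled points are those of Cd274 in spleen and in the mean of the tissues, at -0.46 each.

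Pdcd1lg2, for the other PD-1 ligand, had values below 0 in both tissues and passed in neither. It stood at 135.2, 136.4 and 124.7 scaled counts in control spleens 1, 2 and 3 and at 113.0, 78.96 and 116.3 in ampicillin spleens. The spleen groups did not overlap with housekeeping scaling but did with TMM scaling. The means were 132.1 ± 6.42 and 102.7 ± 20.7 (SD, n = 3 each), a log2 change of -0.35 (SE 0.18, adjusted p = 0.18, edgeR). Control nodes held 146.5, 139.4 and 137.2 scaled counts, and ampicillin nodes 91.34, 127.3 and 149.5. The ampicillin nodes ranged from below to above all control nodes, and the coefficient of variation was 23.9% against 3.44% in control nodes. Before scaling, the counts were 150, 119 and 173 in control nodes and 70, 125 and 115 in ampicillin nodes. Whether the spread differed was not tested. The log2 change in nodes was -0.20 (SE 0.18, adjusted p = 0.55, edgeR). Averaged over the tissues the log2 change was -0.27 (SE 0.13, adjusted p = 0.14, edgeR).

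Btla was not called with ampicillin. It stood at 3052, 2987 and 2460 scaled counts in control spleens 1, 2 and 3 and at 2628, 2485 and 3202 in ampicillin spleens. Control nodes held 2559, 2211 and 2119, and ampicillin nodes 2152, 2461 and 2767. The treatments overlapped in both tissues. The log2 changes were -0.03 in spleen (95% confidence interval -0.31 to 0.25) and 0.10 in nodes (-0.18 to 0.38), neither of which passed (adjusted p = 0.88 and 0.70, edgeR). With TMM scaling the spleen value turned to 0.15, also without a call (adjusted p = 0.46, edgeR).

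Tigit was measured close to the minimum. It stood at 27.04, 21.8 and 26.3 scaled counts in control spleens 1, 2 and 3, and at 24.8, 11.5 and 25.7 in ampicillin spleens. Ampicillin spleen 2, with 9 counts before scaling, was the 1 sample below 20, and no group mean was below 20. In nodes Tigit stood at 37.1, 37.5 and 33.3 in controls and at 40.5, 25.5 and 37.7 after ampicillin. The treatments overlapped in both tissues. The log2 changes were -0.23 in spleen (95% confidence interval -0.83 to 0.38) and -0.07 in nodes (-0.64 to 0.50), and neither passed (adjusted p = 0.61 and 0.91, edgeR). Without ampicillin spleen 2 the spleen value was 0.011. These intervals do not exclude a change as large as that of Cd274.

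**Figure D3:**
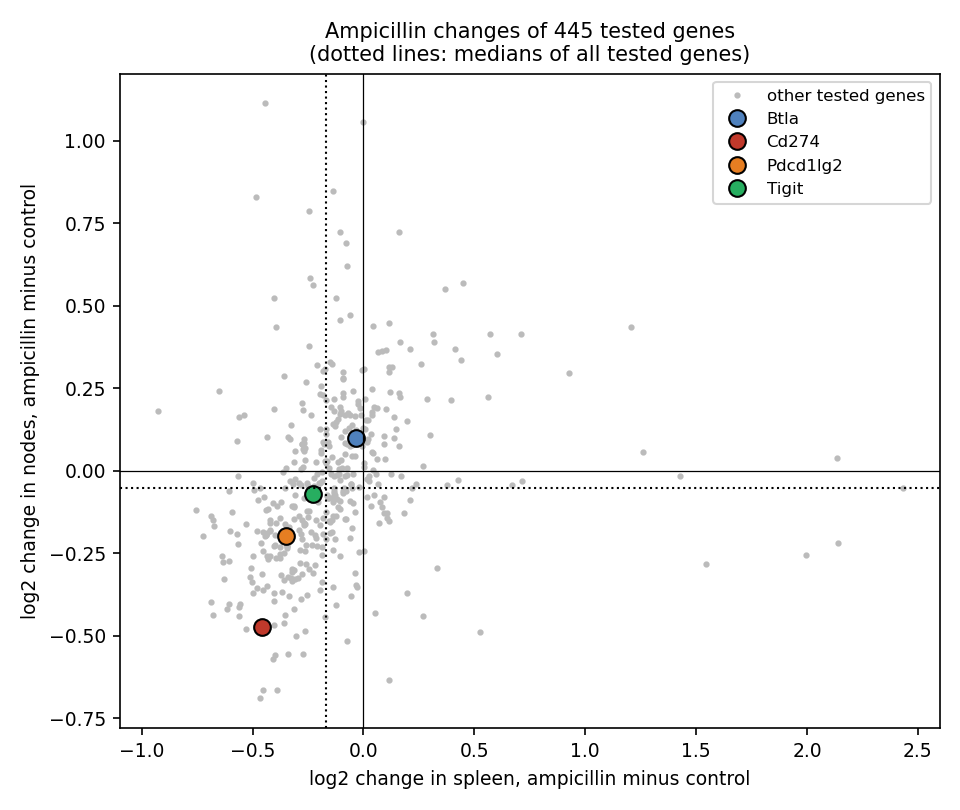
Log2 change with ampicillin in spleen (x axis) against that in nodes (y axis) for the 445 tested genes, with the 4 checkpoint genes as large coloured points and the medians of all tested genes as dotted lines. Cd274, at -0.46 and -0.47, lies farthest of the 4 toward the lower left, and Btla, at -0.03 and 0.10, lies above and to the right of both medians.

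The difference between the ampicillin effects of the tissues was called for none of the 4 genes by edgeR, with 0 at an unadjusted p under 0.05. DESeq2 did not call Btla and gave no adjusted p for Cd274, Pdcd1lg2 and Tigit. Among all tested genes 0 were called by edgeR (0%), 49 lay at an unadjusted p under 0.05, and DESeq2 called 4.

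Between the tissues Tigit had higher values in nodes and Btla lower ones, without a call. None of the 4 was called for nodes against spleen by edgeR, in control mice or after ampicillin, while 64.0% and 63.1% of all tested genes were. At an unadjusted p under 0.05 were Btla in control mice and Tigit after ampicillin. Btla was lower in control nodes by a log2 change of -0.30 (SE 0.13, adjusted p = 0.054, edgeR), and its groups overlapped. It passed with DESeq2 (adjusted p = 0.031) and in 6 of 12 fits without 1 sample, among them those without control spleen 3 (0.024) and control node 1 (0.033), and otherwise those without ampicillin spleens 1 or 3 (0.040 and 0.034) or ampicillin nodes 1 or 3 (0.046 and 0.0497; edgeR).

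Tigit stood higher in control nodes than in control spleen without overlap, at means of 36.0 ± 2.31 and 25.1 ± 2.83 scaled counts (SD, n = 3 each; log2 change 0.51, SE 0.26, adjusted p = 0.10, edgeR). Of all tested genes 35.3% were higher in control nodes without overlap. After ampicillin the log2 change was 0.67 (SE 0.28, adjusted p = 0.051, edgeR), with overlap. That value passed without ampicillin spleens 1 or 3 (adjusted p = 0.046 and 0.040) or ampicillin node 2 (0.022), with the replicate block (0.031) and with limma (0.025). TIGIT is a receptor of T and NK cells, whose markers went opposite ways between the tissues. The 9 tested T cell markers had a median log2 change of 1.15 in control mice and 1.45 after ampicillin. For the 4 tested NK cell markers the medians were -0.83 and -0.57. The part of either cell type in the values of Tigit was not tested.

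The ligand genes were near even between the tissues. Cd274 had log2 changes for nodes minus spleen of -0.20 in control mice and -0.22 after ampicillin, and Pdcd1lg2 of 0.09 and 0.25 (edgeR adjusted p from 0.20 to 0.67). Pdcd1lg2 passed after ampicillin in the fit without ampicillin node 1 (log2 change 0.41, adjusted p = 0.049, edgeR). In order of group means, Cd274 ran from control spleen over control nodes and ampicillin spleen to ampicillin nodes, and each neighbouring pair in this order overlapped. Pdcd1lg2 was highest in control nodes, followed by control spleen, ampicillin nodes and ampicillin spleen, and control nodes and control spleen did not overlap while the other neighbours did. For Btla the order was control spleen, ampicillin spleen, ampicillin nodes and control nodes, with overlap at each step. For Tigit it was control nodes, ampicillin nodes, control spleen and ampicillin spleen, again with overlap at each step.

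PD-1 itself, encoded by Pdcd1, was higher in nodes than in spleen in both treatments. It stood at 55.7, 47.3 and 66.2 scaled counts in control spleens and at 108.4, 101.9 and 113.4 in control nodes, a log2 change of 0.94 (SE 0.16, adjusted p = 0.00021, edgeR). After ampicillin the nodes minus spleen change was 1.25 (SE 0.17, adjusted p = 3.6e-05, edgeR). The T cell markers had larger median log2 changes in the same comparisons, 1.15 and 1.45. With ampicillin the log2 changes of Pdcd1 were -0.41 in spleen and -0.10 in nodes, and neither passed (adjusted p = 0.12 and 0.76, edgeR). Neither ligand gene was called between the tissues.

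Known partners of the checkpoint proteins, 12 of which were tested of 18 listed, had 3 members that fell in spleen and 0 that rose, where 14.6% of all tested genes fell. Their log2 changes had a median of -0.30, with -0.17 over the whole tested panel. Lta, a lymphotoxin that can bind HVEM, fell by 0.63 on the log2 scale (adjusted p = 0.0135, edgeR). Tnfsf14, encoding the HVEM ligand LIGHT, fell by 0.56 (adjusted p = 0.047, edgeR). Cd226, the activating counterpart of TIGIT, fell by 0.48 (adjusted p = 0.017, edgeR). With TMM scaling only Lta of these passed. With only the 6 spleens compared, or without control spleen 1, no tested gene was called with ampicillin in spleen. This holds for the lists and markers below too. In nodes none of the 12 was called.

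Tnfrsf14, the gene of the BTLA ligand HVEM, had opposite signs in the tissues without a call. In control spleens it stood at 640.2, 758.2 and 572.9 scaled counts and in ampicillin spleens 1, 2 and 3 at 506.7, 1202 and 1142. The high values were those of the 2 spleens with high erythroid markers, and the part of those cells in it was not tested. In nodes it stood at 752.9, 706.5 and 690.7 in controls and at 480.2, 553.2 and 498.1 after ampicillin, with no overlap. The log2 changes were 0.53 in spleen and -0.49 in nodes (adjusted p = 0.12 and 0.26, edgeR), and their difference, -1.02, did not pass (SE 0.33, adjusted p = 0.31, edgeR). After ampicillin Tnfrsf14 was lower in nodes than in spleen by a log2 change of -0.89 (adjusted p = 0.0048, edgeR). These groups overlapped, as ampicillin spleen 1, at 506.7, lay within the range of the ampicillin nodes.

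Genes of the interferon gamma pathway that leads to Cd274 included 8 tested genes, 3 of which fell in spleen and 0 rose, where 14.6% of all tested genes fell. The list's median log2 change, -0.12, was less negative than the -0.17 of all tested genes, and it was 0.050 with TMM scaling. Irf1 stood at 1772, 1611 and 1874 scaled counts in control spleens and at 1474, 1089 and 1151 in ampicillin spleens. All ampicillin values lay below the controls. The log2 change was -0.50 (SE 0.11, adjusted p = 0.017, edgeR), and with TMM scaling -0.33 (adjusted p = 0.038, edgeR). Stat2, a signalling factor of the interferon pathways, fell by 0.48 (adjusted p = 0.038, edgeR), and with TMM scaling it did not pass (adjusted p = 0.097, edgeR).

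In nodes Irf1 stood at 2491, 2539 and 2480 scaled counts in controls and at 2054, 2119 and 2105 after ampicillin, without overlap but also without a call (log2 change -0.26, adjusted p = 0.19, edgeR). Averaged over the tissues Irf1 fell by 0.38 and Stat2 by 0.33 (adjusted p = 0.0083 and 0.029, edgeR). With TMM scaling the averaged change of Irf1 passed (-0.27, adjusted p = 0.011, edgeR) and that of Stat2 did not (-0.22, adjusted p = 0.056, edgeR). The averaged change of Ifngr1 was then a rise (0.21, adjusted p = 0.0063, edgeR). With TMM scaling 1 gene of the list was called in nodes, Ifngr1, a chain of the interferon gamma receptor, which rose by a log2 change of 0.30 (adjusted p = 0.026, edgeR). The cytokine gene itself, Ifng, lay below the minimum at a mean of 4.51 scaled counts and was not tested. Irf1 and Cd274 differed in their tissue pattern: Irf1 was higher in control nodes than in control spleen (log2 change 0.51, adjusted p = 0.00082, edgeR), where Cd274 was at -0.20.

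Among other inhibitory receptors of lymphocytes, 2 of 13 tested genes fell in spleen and 0 rose, a share close to the 14.6% of all tested genes that fell. With TMM scaling 1 of the 13 fell. The list's median lay at -0.35, with -0.17 for the tested panel. They were Cd5, a brake on T cell receptor signalling (-0.62, adjusted p = 0.017), and Cd22, an inhibitory receptor of B cells (-0.50, adjusted p = 0.024; log2 changes, edgeR). Averaged over the tissues the same genes fell, by 0.52 and 0.42 (adjusted p = 0.0063 and 0.0083, edgeR). Cd5 is also among the T cell markers and Cd22 among the B cell markers counted below. Ctla4, the T cell receptor that competes with CD28 for the B7 ligands, was higher in control nodes than in control spleen. Its log2 change was 1.37 (adjusted p under 0.05, edgeR), and it was not called with ampicillin in either tissue. Most of the list went the other way between the tissues. In control nodes against control spleen, 8 of the 13 tested genes were lower and 4 higher, where 64.0% of all tested genes were called. The list's median log2 change there was -0.71, with -0.03 for the tested panel.

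Costimulatory genes, the activating counterparts, had 6 of 10 tested members that fell in spleen and 0 that rose, where 14.6% of all tested genes fell. The median of their changes was -0.45, compared with -0.17 for the tested panel. Tnfrsf4, encoding OX40, fell by 0.69, Icos by 0.57, Cd27 by 0.56 and Cd40 by 0.51 (log2, adjusted p = 0.017, 0.017, 0.020 and 0.025, edgeR). With TMM scaling 3 of the 10 fell, Tnfrsf4, Icos and Cd27. Of 9 tested regulators of checkpoint expression in activated T cells 2 fell in spleen and 0 rose, against the same 14.6%, Nfatc2 by 0.43 and Nfatc1 by 0.28 (adjusted p = 0.029 and 0.038, edgeR), and with TMM scaling neither passed. NFAT factors act downstream of calcium in T cell receptor signalling. In nodes none of the tested members of these 3 lists was called with housekeeping scaling. With TMM scaling Cd5 fell by 0.36 and Cd27 by 0.35 there (log2, adjusted p = 0.046 each, edgeR).

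Markers of cells that carry these proteins moved with the treatment, and their part in the values of the 4 genes was not tested. In spleen 6 of 9 T cell markers, 3 of 7 B cell markers, 2 of 4 dendritic cell markers and 0 of 5 macrophage markers fell. The share of all tested genes that fell there was 14.6%. With TMM scaling 3 T cell markers fell and none of the other 3 lists had a fall. Summed T cell markers ran from 6837 to 7384 scaled counts in control spleens and from 4207 to 6521 in ampicillin spleens. Summed B cell markers ran from 24897 to 26472 and from 19980 to 23625. Summed macrophage markers overlapped, from 7848 to 8820 and from 6868 to 8861. Summed NK cell markers, for a cell type that carries TIGIT, ran from 1016 to 1404 in control spleens and from 885.1 to 938.1 in ampicillin spleens, without overlap, and 1 of 4 fell. Summed regulatory T cell markers overlapped in spleen, from 460.9 to 577.3 and from 285.6 to 468.2, and 1 of 4 fell. In nodes they did not overlap, from 949.0 to 1066 in controls and from 836.5 to 901.6 after ampicillin, with no marker called. Summed T cell markers did not overlap there either, from 13203.5 to 14107.4 in controls and from 11404.6 to 12332.3 after ampicillin. The sums of B cell, dendritic cell, macrophage and NK cell markers overlapped in nodes. Of single tested genes, 31.7% lay lower without overlap in spleen and 20.7% in nodes. No marker of these lists was at 0, but the lowest value of any gene was 1 in every sample, so this does not speak to detection. In nodes none of the tested T cell, B cell, dendritic cell or macrophage markers was called, and with TMM scaling 1 T cell and 1 B cell marker fell.

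Cd274 was therefore also set against the mean log2 level of each marker list within the same sample. Relative to macrophage markers it lay from -1.81 to -1.74 in control spleens and from -2.48 to -1.84 in ampicillin spleens, without overlap. In nodes the same difference lay from -1.88 to -1.38 in controls and from -2.40 to -2.23 after ampicillin, again without overlap. Relative to T cell markers the spleens overlapped, from -0.84 to -0.56 in controls and from -0.98 to -0.24 after ampicillin. They overlapped relative to B cell markers too, from -2.67 to -2.41 and from -2.73 to -2.50, and relative to dendritic cell markers, from -0.86 to -0.50 and from -0.96 to -0.48. In nodes Cd274 stayed lower without overlap relative to B cell markers, from -1.99 to -1.66 in controls and from -2.32 to -2.10 after ampicillin. It was also lower relative to dendritic cell markers there, from -1.23 to -0.98 and from -1.64 to -1.40, and overlapped relative to T cell markers, from -2.22 to -1.71 and from -2.38 to -2.08. Among all tested genes, 14.6% lay lower without overlap relative to macrophage markers in spleen, 26.5% in nodes and 7.42% in both tissues. In nodes 58 of the 445 tested genes did so relative to B cell markers and 55 relative to dendritic cell markers. No test was made of these differences.

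**Figure D4:**
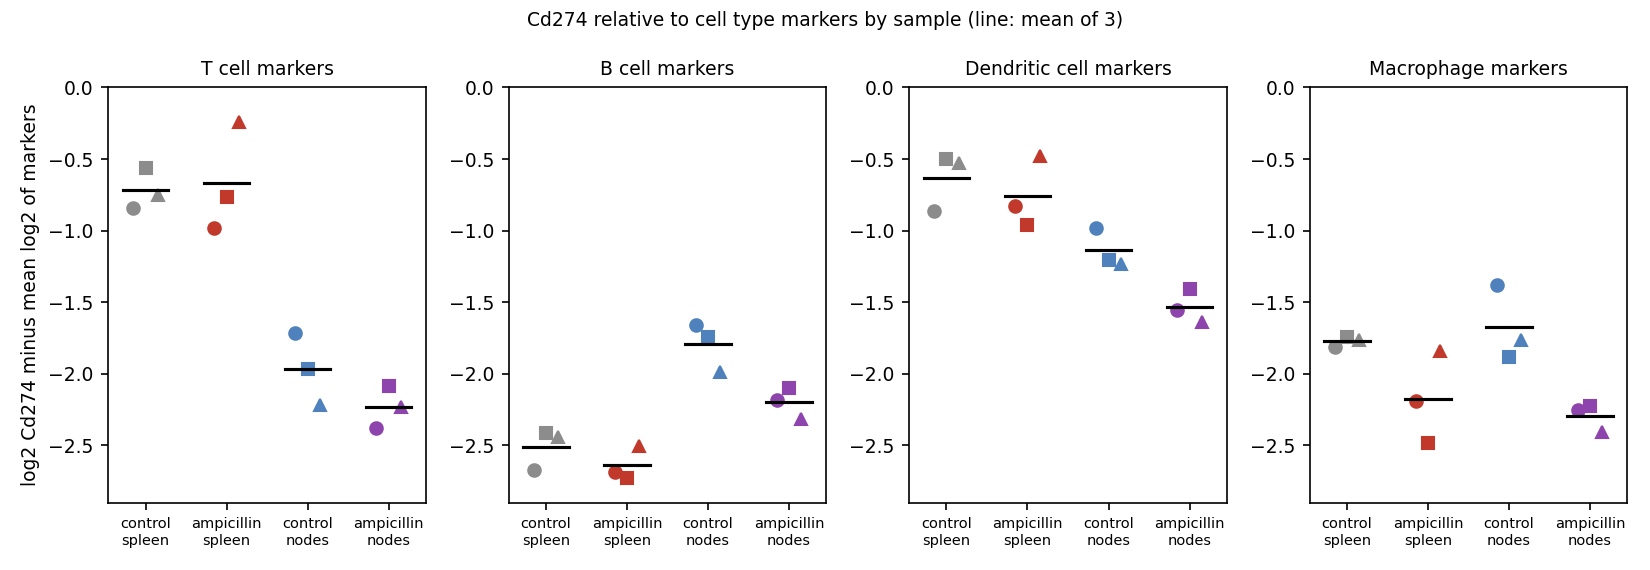
Log2 scaled count of Cd274 minus the mean log2 scaled count of T cell, B cell, dendritic cell and macrophage markers (y axis) in the 12 samples by group (x axis). Points are samples and lines are means of 3. Relative to macrophage markers the ampicillin samples lay below the controls in both tissues, from -2.48 to -1.84 in spleen and from -2.40 to -2.23 in nodes.

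The genes whose log2 levels followed each member most closely over the 12 samples were sought among the 444 other tested genes. For Cd274 they were H2-Ob, Dpp4 and Tlr1, at Pearson r of 0.93, 0.88 and 0.88. H2-Ob encodes a chain of the peptide-loading regulator of MHC class II in B cells, Dpp4 the surface peptidase CD26 and Tlr1 a receptor for bacterial lipopeptides. For Pdcd1lg2 they were Icosl, Src and Ikbkb (0.89, 0.89 and 0.87). Icosl, like Pdcd1lg2, encodes a B7 family ligand. For Btla they were Il12rb2, Ctsc and Clec4a4 (0.83, 0.79 and 0.79), and for Tigit Nt5e, Il23r and Fcamr (0.91, 0.91 and 0.85). For deviations from the group means, r in the same order was 0.82, 0.76 and 0.60 for Cd274 and 0.85, 0.78 and 0.82 for Pdcd1lg2. It was 0.80, 0.69 and 0.77 for Btla and 0.91, 0.88 and 0.72 for Tigit. Those of Tigit were 0.92, 0.92 and 0.88 within the 6 spleens but 0.51, 0.53 and -0.17 within the 6 nodes. Btla and Ctsc correlated at 0.39 within the 6 spleens and 0.84 within the 6 nodes.

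The ligand genes Cd274 and Pdcd1lg2 correlated with each other at 0.55 over the 12 samples, at 0.90 within the 6 spleens and at 0.59 within the 6 nodes. Deviations from the group means of these genes correlated at 0.57. All such values describe samples that share their housekeeping scale and their tissue and treatment differences.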

How the data were processed

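RNA from tissue stored in RNAlater was isolated with an RNeasy kit, per the labels' protocols. The series' design text names normalization to 14 housekeeping genes in nSolver, but the deposited values are whole-number counts whose housekeeping geometric mean ran from 912.4 to 1501, a 1.65-fold range, so they were taken as counts before normalization. Another deposited table has 12 per-sample columns whose names match no label. It was not used, so no background was taken from control probes. The 14 housekeeping genes were named from knowledge of the panel.

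Counts were tested with edgeR 4.0.16 (quasi-likelihood, R 4.3.3) in a model of 4 group means over 12 samples with housekeeping scaling, for the 445 of 547 non-housekeeping genes whose mean reached 20 scaled counts. P-values were adjusted by Benjamini-Hochberg over the 445 genes in each of 6 contrasts, and calls are genes below 0.05. SE and p rest on a spread shared over the groups. Comparisons within a tissue or a treatment share samples with each other and with the mean and the difference of effects. The test was checked on simulated data. Alternatives were TMM scaling, DESeq2 1.42.0, limma 3.58.1 on log2(scaled value + 1), no minimum or a minimum of 50, only the 6 samples compared, a replicate block, and each sample left out in turn.

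The members, gene lists and markers were chosen with earlier results of these data known. Named genes were the members, the 3 genes most correlated with each, and called members of the lists, at most 4 a list for ampicillin and 3 for tissues. Ctla4, Pdcd1 and Tnfrsf14 entered by their tissue change. Ifng, Ifngr1 and the values of named genes in other contrasts were added after values were seen. Titles number samples 1 to 3 in each group, but the labels name different mice. Same-numbered samples had correlations of deviations from -0.38 to 0.24, above 0.1 in 3 of 18 pairs, so samples were not paired. Chi-square values between replicates were 3.59 to 66.1 per degree of freedom. They pool all tested genes, so the pooled spread between samples exceeds counting error. For single genes, such as the members with low counts, this was not tested. All 4 genes matched a RefSeq symbol of GRCm38.p6, and promoter windows come from RefSeq. Values of 1 gene of the lists are not reported here.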

Additional observations from a re-analysis of the deposited data

How the results depend on the processing

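Of the ampicillin results for the 4 genes, the mean fall of Cd274 over the tissues kept its call in all 18 alternatives, and its fall in spleen in 9 of 19. In spleen the count of members called, 1, became 0 with TMM scaling, limma, only the 6 samples compared and the replicate block, and ran from 0 to 1 with 1 sample left out. The count of all genes called there, 75, was 22 with TMM scaling, 44 with limma, 0 with only the 6 samples and 41 with the replicate block, and ran from 0 to 159 with 1 sample left out. TMM scaling moved the share of falls among calls from 86.7% to 50% in spleen, from 87.3% to 45.4% in the mean of tissues and from 50% to 43.8% in nodes. In nodes the 2 genes called became 32 with TMM scaling, 6 with DESeq2, 15 with only the 6 samples and 0 with the replicate block, and ran from 0 to 32 with 1 sample left out. For the difference of effects the 0 became 4 with DESeq2 and ran from 0 to 59, and for the mean of tissues the 102 ran from 67 to 157.

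For nodes minus spleen the 0 members called became 1 in control mice with DESeq2 and with only the 6 samples compared, and 1 after ampicillin with limma and with the replicate block. With 1 sample left out each ran from 0 to 1. The replicate block changed no other member's call. The spleen change of Btla reversed to 0.15 with TMM scaling and ran from -0.15 to 0.041 with 1 sample left out, and its mean over tissues from -0.024 to 0.078. On leaving out 1 sample, the change of Tigit ran from -0.40 to 0.011 in spleen and from -0.20 to 0.12 in nodes. The difference of effects then ran from -0.12 to 0.10 for Cd274, from -0.0077 to 0.32 for Pdcd1lg2 and from -0.081 to 0.35 for Tigit. None of these reversed values was called, and the cause was not tested. With a minimum of 50 Tigit was not tested. With 3 samples a group, intervals for Tigit and Pdcd1lg2 remain wide.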
